A study of Nematostella vectensis with 4 samples.

Results

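*Nvmucin*-positive cells, referred to here as *Nvmucin* cells, were examined in single cell RNA sequencing data from whole *Nematostella vectensis* gastrulae at 24 h post fertilization. *Nvmucin* (NV2g012902000.1) is the only gene that the study's supplementary marker list gives for the gland cell class. A cell barcode was counted as a *Nvmucin* cell when it held at least 500 genes, at least 2 unique molecular identifiers (UMIs) of *Nvmucin* and at least 500 *Nvmucin* CPM (UMIs of a gene per 1000000 UMIs of the barcode), with 0 UMIs of the neuropeptide gene *NvLWamide* (NV2g023192000.1) and of the minicollagen gene *Nvncol1* (NV2g011820000.1). This rule selected 353 of 16089 barcodes with at least 500 genes. They were compared with the 15143 barcodes that held 0 *Nvmucin* UMIs. The 4 libraries are technical replicates made from 1 pool of dissociated embryos on 1 chip, and the labels give no treatment, mutant or strain. Because the pool is shared, the p-values below measure at most the spread between libraries and not between animals.

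Gland cells are secretory cells that release mucus or digestive enzymes onto the surface of the epithelium. In *N. vectensis* many of them lie in the ectoderm of the body wall and of the pharynx. Mucins are large, heavily glycosylated proteins that swell into a protective gel after secretion. Cnidocytes, the stinging cells, are the other abundant secretory cell class of cnidarians and carry a capsule with a wall of minicollagens. Neurons and gland cells of cnidarians can share parts of the machinery for regulated secretion. The label of gland cell rests on *Nvmucin* alone. A single marker that also chose the cells cannot test that label, so the name *Nvmucin* cells is kept throughout. The genome positions of the genes are not given in the sources used here.

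Barcodes of replicates 1 to 4 with at least 500 genes numbered 3680, 2907, 2268 and 7234, and the libraries held between 22980631 and 56880930 UMIs. Replicate 4 stood apart, because it had the largest number of barcodes and the shallowest ones. Its barcodes with 0 *Nvmucin* UMIs had a median of 2291.5 UMIs, against 5054 to 6660 in the other 3 libraries. Results that rest on replicate 4 are therefore also given without it. Of all barcode sequences, 28 occurred in a pair of libraries, and none of these belonged to a *Nvmucin* cell.

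The *Nvmucin* cells numbered 87, 74, 58 and 134 in replicates 1 to 4. Their share of barcodes was 2.36% (95% exact binomial interval 1.90 to 2.91%) in replicate 1, 2.55% (2.00 to 3.19%) in replicate 2, 2.56% (1.95 to 3.29%) in replicate 3 and 1.85% (1.55 to 2.19%) in replicate 4. These intervals cover counting error only. The share was lowest in replicate 4, and its interval overlapped those of the other libraries. *Nvmucin* cells held 71.0%, 71.6%, 69.1% and 61.8% of the *Nvmucin* UMIs of replicates 1 to 4, while they held only 0.886 to 0.941% of all UMIs. These values describe the rule, because *Nvmucin* chose the cells.

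A *Nvmucin* cell held between 2 and 45 *Nvmucin* UMIs, with a median of 5. At the low end 84 cells had 2 UMIs, and at the high end 106 cells had 10 or more. The level of *Nvmucin* in a cell ranged between 511 and 17642 CPM with a median of 2056. Summed over the cells of a library it reached 1813, 2467, 2246 and 1923 CPM in replicates 1 to 4. The 10 *Nvmucin* cells closest to the minimum of 500 CPM had a median of 536, and the 10 barcodes closest to it from below, with 0 *NvLWamide* and *Nvncol1* UMIs, had a median of 462. The lowest *Nvmucin* cell stood at 511 and the highest of the barcodes below the minimum at 493 CPM.

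The minimum of 500 CPM removed deep barcodes. Of 521 barcodes with 2 or more *Nvmucin* UMIs, 128 fell under it, and their median was 27929.5 UMIs. *Nvmucin* cells were shallow by comparison, with medians of 2630, 2242, 2975.5 and 1979.5 UMIs in replicates 1 to 4, against 6660, 5054, 5308 and 2291.5 UMIs in barcodes with 0 *Nvmucin* UMIs. Another 38 barcodes reached both minima but held an *NvLWamide* UMI, 26 of them a single one, and 2 held an *Nvncol1* UMI. A further 425 barcodes held 1 *Nvmucin* UMI.

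**Figure D1:**
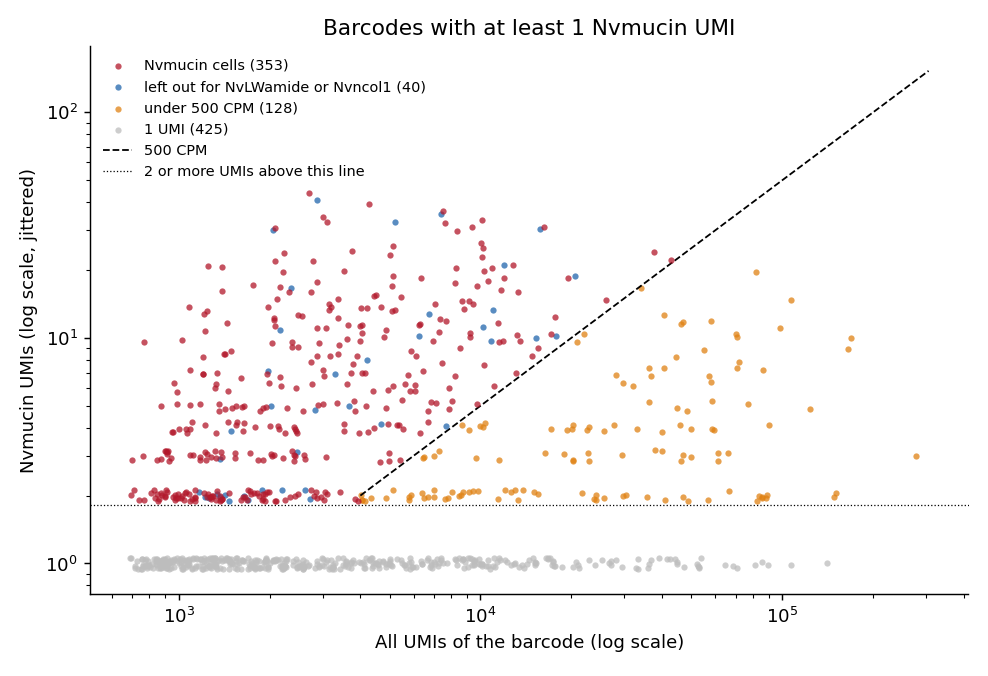
*Nvmucin* UMIs (log scale, jittered) against all UMIs (log scale) of the 946 barcodes with at least 500 genes and at least 1 *Nvmucin* UMI. The 353 *Nvmucin* cells lie above both minima at lower depth, and the 128 barcodes under 500 CPM lie below the dashed line at high depth.

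Free RNA can place UMIs of a gene in droplets whose cell does not express it. *Nvmucin* was therefore counted in barcodes defined by other genes at the same minima of 2 UMIs and 500 CPM. Of 119 barcodes with *NvsnailA*, a marker of the mesoendoderm, 2 held an *Nvmucin* UMI (1.68%, 95% exact interval 0.204 to 5.94%), and 0 reached both minima, for which a limit of 3 barcodes gives a share of up to 2.52%. Of 1767 barcodes with *Nvwnt2*, a marker of the trunk ectoderm, 46 held an *Nvmucin* UMI (2.60%) and 11 reached both minima (0.623%). Of 143 barcodes with *Nvncol1*, 4 held an *Nvmucin* UMI (2.80%) and 0 reached both minima. Of 543 barcodes with *NvLWamide*, 41 held an *Nvmucin* UMI (7.55%, 95% exact interval 5.47 to 10.1%) and 10 reached both minima (1.84%), shares above those of the other 3 genes. These intervals pool the barcodes of all libraries and cover counting error only. The interval for an *Nvmucin* UMI in *NvLWamide* barcodes overlapped those in *NvsnailA* barcodes and in *Nvncol1* barcodes (0.767 to 7.01%). Over all barcodes 5.88% held an *Nvmucin* UMI and 2.44% reached both minima. Median depth was 3649 UMIs in the *NvsnailA* barcodes, 6797 in the *Nvwnt2* barcodes, 4004 in the *Nvncol1* barcodes, 3494 in the *NvLWamide* barcodes and 3720 in all barcodes.

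To determine which other genes distinguished these cells, UMIs were summed over the cells of each library and compared with edgeR's quasi-likelihood test, with *Nvmucin*, *NvLWamide* and *Nvncol1* left out of the sums. Levels are given as CPM, here the UMIs of a gene per 1000000 UMIs of the summed cells. Of 15912 genes tested against barcodes with 0 *Nvmucin* UMIs, 2638 (16.6%) were higher and 3881 (24.4%) were lower in *Nvmucin* cells at an adjusted p under 0.05. Among the higher genes, 264 rose by at least 5 on the log2 scale and 2273 were higher in 4 of 4 libraries. Among the lower genes, 325 fell by at least 5 and 3868 were lower in 4 of 4 libraries. The median log2 fold change over all genes tested was -0.43. When the comparison barcodes were matched to the depth of the *Nvmucin* cells, 2508 genes were higher and 2243 lower of 12270 tested, so that the share of higher calls was 52.8%, against 40.5% in the comparison above. A filter on the mean count, chosen after seeing the data, kept only 2873 genes, of which 1051 were higher and 1183 lower. The shares of 16.6% and 24.4% therefore depend on the filter, also where they are set beside markers and mitochondrial genes below.

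The 2 genes with the largest rise were NV2g012903000.1 and NV2g012904000.1. The deposited files and the sources used here pair neither with a name. NV2g012903000.1 reached 2285, 2491, 1955 and 1442 CPM in the *Nvmucin* cells of replicates 1 to 4, against 2.78, 1.89, 2.96 and 4.64 CPM in barcodes with 0 *Nvmucin* UMIs (log2 fold change 9.54, SE 0.34, edgeR adjusted p = 3.17e-10). NV2g012904000.1 reached 8177, 9044, 8300 and 4085 CPM in *Nvmucin* cells, against 18.2, 16.0, 13.4 and 20.3 CPM in barcodes with 0 *Nvmucin* UMIs (log2 fold change 8.95, SE 0.32, edgeR adjusted p = 2.67e-10). Neither gene had overlapping values between the groups, and replicate 4 had the lowest level in *Nvmucin* cells and the highest in the comparison barcodes for both genes. The log2 fold changes were smaller against depth-matched barcodes (8.33 for NV2g012903000.1 and 8.04 for NV2g012904000.1) and after thinning each barcode to 1000 UMIs (7.89 and 7.45). Together they took 1.05%, 1.15%, 1.03% and 0.553% of the UMIs of *Nvmucin* cells in replicates 1 to 4, against 0.00164 to 0.00249% in barcodes with 0 *Nvmucin* UMIs.

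These are the 2 entries that directly follow *Nvmucin* in the deposited gene list, with consecutive ID numbers. NV2g012904000.1 had 9231 UMIs in *Nvmucin* cells, more than the 2780 UMIs of *Nvmucin* itself. The levels of these genes are uncertain, since reads of overlapping or near-identical gene models can be split between them by the counting, and whether this held for these entries was not tested. If they shared reads with *Nvmucin*, their rise and detection would follow in part from the rule that chose the cells. This limit applies to all 3 comparisons. Of the 10 list entries nearest to *Nvmucin*, 3 were higher in *Nvmucin* cells, 1 was lower and 6 did not pass the test. Among all genes tested 16.6% were higher. Of the 3 higher entries, 2 are these same genes, already chosen for the largest rise. The count is therefore no evidence of a rise among the neighbours of *Nvmucin*. The third was NV2g012907000.1 (log2 fold change 2.96, edgeR adjusted p = 0.00106).

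Detection in single cells followed the sums. At least 1 UMI of either gene was found in 341 of 353 *Nvmucin* cells (96.6%), and UMIs of both were found in 292 (82.7%). In barcodes with 0 *Nvmucin* UMIs, 8.80% held at least 1 UMI of either gene and 1.08% held both, although their median depth was higher. NV2g012904000.1 was detected in 98.9%, 100%, 98.3% and 87.3% of the *Nvmucin* cells of replicates 1 to 4, against 9.68%, 6.46%, 6.01% and 7.28% of barcodes with 0 *Nvmucin* UMIs. The 12 *Nvmucin* cells without either gene all held 2 *Nvmucin* UMIs, the minimum of the rule.

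**Figure D2:**
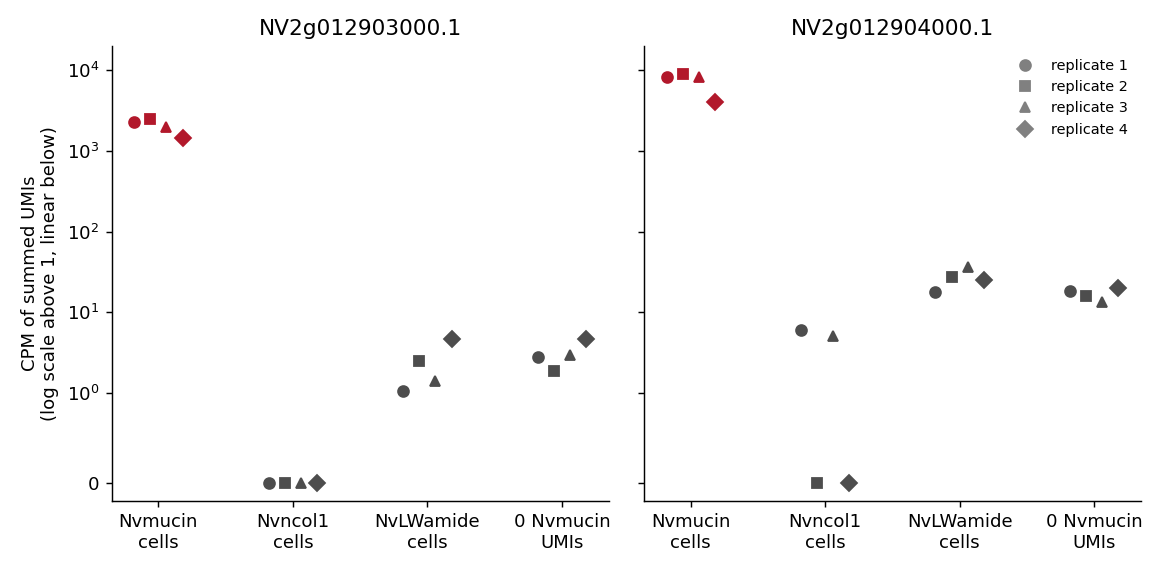
CPM (log scale above 1, linear below) of NV2g012903000.1 and NV2g012904000.1 in summed UMIs, 1 point per library, in *Nvmucin* cells, *Nvncol1* cells, *NvLWamide* cells and barcodes with 0 *Nvmucin* UMIs. The *Nvmucin* cells sit between 1442 and 2491 CPM for the first gene and between 4085 and 9044 CPM for the second, above every other point.

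The 2 genes with the largest fall, among those with a mean of at least 100 CPM in the comparison barcodes, were NV2g009093000.1 and NV2g007911000.1, which the sources used here also leave without a name. NV2g009093000.1 had 15.1, 8.75, 4.69 and 9.50 CPM in *Nvmucin* cells, against 245, 243, 261 and 253 CPM in barcodes with 0 *Nvmucin* UMIs (log2 fold change -4.40, SE 0.23, edgeR adjusted p = 7.61e-09). NV2g007911000.1 had 25.2, 8.75, 14.1 and 19.0 CPM in *Nvmucin* cells, against 340, 337, 378 and 299 CPM in barcodes with 0 *Nvmucin* UMIs (log2 fold change -4.01, SE 0.24, edgeR adjusted p = 2.92e-08). The groups did not overlap for either gene. The *Nvmucin* cells contributed only 14 and 25 UMIs of these genes over the 4 libraries. Against depth-matched barcodes the falls were smaller, with a log2 fold change of -2.27 for NV2g009093000.1 (edgeR adjusted p = 0.0455) and of -1.96 for NV2g007911000.1 (edgeR adjusted p = 0.0213). After thinning each barcode to 1000 UMIs they were -3.27 and -2.76.

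To describe how widely a broader set of genes was shared among *Nvmucin* cells, a list of 50 genes was taken for each library from the comparison fitted on the other 3 libraries. The lists held the genes with the largest rise and at least 20 UMIs in *Nvmucin* cells, and 36 genes occurred in all 4 lists. NV2g012903000.1 and NV2g012904000.1 were among these 36, so the limit given for them above applies in part to the lists. The median *Nvmucin* cell spent 14.3%, 12.3%, 12.6% and 6.70% of its UMIs on the listed genes in replicates 1 to 4 (mean 11.5% ± 3.32, SD, n = 4). The median of barcodes with 0 *Nvmucin* UMIs was at most 0.00778% in any library, and their summed UMIs gave 0.0332 to 0.0657%. Replicate 4 was the lowest library, with quartiles of 2.23 and 13.3% among its *Nvmucin* cells. Of all *Nvmucin* cells, 344 of 353 lay above the 95th percentile of the barcodes with 0 *Nvmucin* UMIs of their own library, and the other 9 belonged to replicate 4, where that percentile was 0.871%, against 0.117 to 0.160% elsewhere.

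The same lists were read out in the barcodes that the rule left out. Of the 38 barcodes left out for an *NvLWamide* UMI, 33 lay above that percentile, and their medians were 12.2%, 15.3%, 10.3% and 2.63% in replicates 1 to 4. Of the 128 deep barcodes under 500 CPM, 102 lay above it, although the mean of their library medians was only 1.33%. Of the 425 barcodes with 1 *Nvmucin* UMI, 221 (52.0%) lay above it. By contrast 1 of 136 *Nvncol1* cells and 48 of 489 *NvLWamide* cells (9.82%) did so. The percentile itself leaves about 5% of the barcodes with 0 *Nvmucin* UMIs above it.

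**Figure D3:**
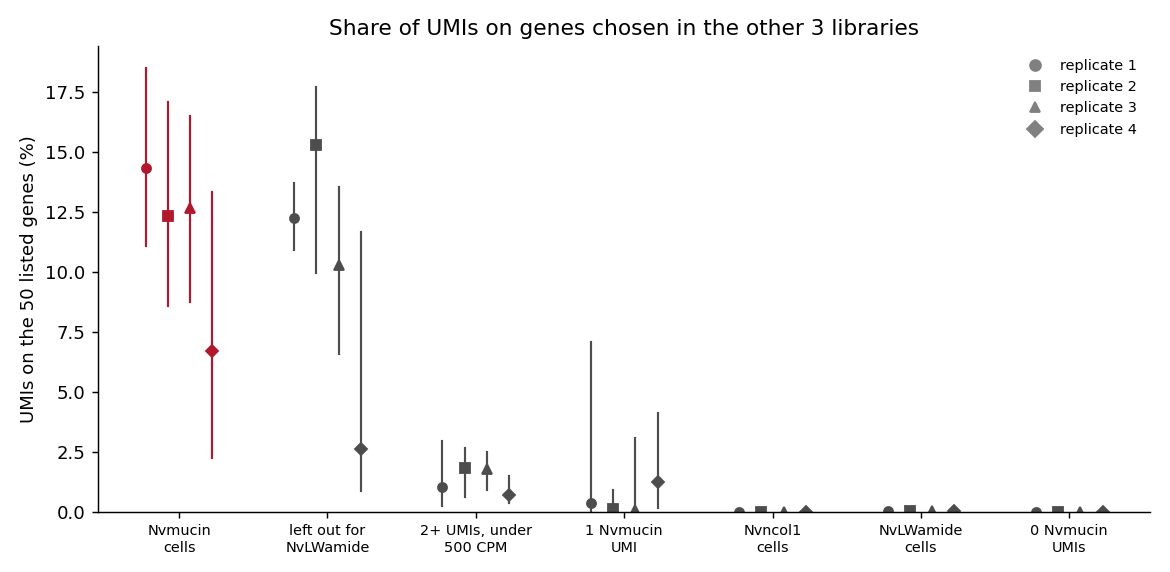
Percent of a barcode's UMIs on 50 genes chosen in the other 3 libraries, by group and library. Points are medians over barcodes and bars run between the quartiles. The medians of *Nvmucin* cells lie between 6.70 and 14.3%, and those of barcodes with 0 *Nvmucin* UMIs lie at or below 0.00778%.

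In the main comparison none of the 9 tested markers of other cell classes was called higher in *Nvmucin* cells than in barcodes with 0 *Nvmucin* UMIs. Of the 9 genes of the study's marker list that the rule did not use and that were tested, 0 were higher, 4 were lower and 5 did not pass edgeR's test at an adjusted p under 0.05, against 16.6% of all genes higher and 24.4% lower. At an unadjusted p under 0.05, 0 were higher as well. Their median log2 fold change was -0.92, against -0.43 over all genes. DESeq2 called 0 of them higher. In the comparison without replicate 4, edgeR called 5 of them lower. These counts over 9 genes were not tested against the shares over all genes and are too few to set the markers apart. The comparison barcodes also keep cells with *NvLWamide* or *Nvncol1*, which the rule removes from the *Nvmucin* cells. Against barcodes with 0 UMIs of both genes, *Nvelav* was higher in *Nvmucin* cells, as given below.

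*NvsnailA* (NV2g000472000.1), a zinc finger transcription factor of the mesoendoderm, had 7.56, 0, 14.1 and 7.60 CPM in *Nvmucin* cells, against 56.3, 55.5, 58.9 and 62.5 CPM in barcodes with 0 *Nvmucin* UMIs. Its level was lower in every library (log2 fold change -2.78, SE 0.32, edgeR adjusted p = 1.80e-05). The sum rested on 10 UMIs in *Nvmucin* cells, and the call was lost against depth-matched barcodes (-0.89, edgeR adjusted p = 0.484) and after thinning each barcode to 1000 UMIs (-1.73, edgeR adjusted p = 0.0950).

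*Nvwnt2* (NV2g003168000.1), a secreted Wnt ligand of the trunk ectoderm, had 55.4, 43.8, 4.69 and 118 CPM in *Nvmucin* cells, against 170, 160, 170 and 188 CPM in barcodes with 0 *Nvmucin* UMIs (log2 fold change -1.19, SE 0.36, edgeR adjusted p = 0.0175). It was lower in 4 of 4 libraries, but the level in *Nvmucin* cells varied widely, and the call was lost without replicate 1 (edgeR adjusted p = 0.0664) or without replicate 2 (edgeR adjusted p = 0.0793). Without replicate 4 the log2 fold change was -1.93. NV2g011441000.1, which the marker list gives under a pair of names for aboral and for pharyngeal ectoderm, had 5.04, 0, 42.2 and 11.4 CPM in *Nvmucin* cells, against 82.8, 62.6, 92.3 and 87.1 CPM in barcodes with 0 *Nvmucin* UMIs (log2 fold change -2.48, SE 0.43, edgeR adjusted p = 6.16e-04). It was -3.24 without replicate 3 and -1.87 against depth-matched barcodes.

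Among neuronal genes, *NvashA* (NV2g009665000.1), a transcription factor of the achaete-scute family that acts in neurogenesis, was lower in *Nvmucin* cells. It had 10.1, 4.38, 4.69 and 0 CPM in *Nvmucin* cells, against 30.8, 27.0, 35.3 and 32.6 CPM in barcodes with 0 *Nvmucin* UMIs (log2 fold change -2.62, SE 0.48, edgeR adjusted p = 9.25e-04). The log2 fold change was -3.67 without replicate 1 and -1.94 without replicate 4. The call depended on which barcodes were compared. *Nvmucin* cells hold no *NvLWamide* and no *Nvncol1* by the rule, and against barcodes that also held 0 UMIs of these genes the log2 fold change of *NvashA* was -0.40 (edgeR adjusted p = 0.709). *Nvelav* (NV2g000252000.1), an RNA-binding protein gene used as a neuronal marker, had 40.3, 43.8, 18.8 and 26.6 CPM in *Nvmucin* cells, against 25.9, 23.8, 30.7 and 26.9 CPM in barcodes with 0 *Nvmucin* UMIs (log2 fold change 0.48, SE 0.25, edgeR adjusted p = 0.137). It did not pass the test, and against barcodes with 0 *NvLWamide* and *Nvncol1* UMIs it was higher in *Nvmucin* cells (log2 fold change 1.49, edgeR adjusted p = 3.06e-04). *Nvelav* also passed without replicate 3 (0.72, edgeR adjusted p = 0.0442) and among cells with at least 1000 *Nvmucin* CPM (0.76, edgeR adjusted p = 0.0198), and after thinning to 1000 UMIs its log2 fold change was -0.05 (edgeR adjusted p = 0.947). An *Nvelav* UMI was found in 38 of 353 *Nvmucin* cells (10.8%), against 11.5% of barcodes with 0 *Nvmucin* UMIs.

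The cnidocyte gene *Nvncol3* (NV2g010686000.1), a minicollagen of the capsule wall, was the one marker with many UMIs in *Nvmucin* cells. It had 494, 78.8, 661 and 1921 CPM in *Nvmucin* cells, against 1726, 1392, 1369 and 1674 CPM in barcodes with 0 *Nvmucin* UMIs (log2 fold change -0.73, SE 0.57, edgeR adjusted p = 0.331). It was below the comparison barcodes in replicates 1 to 3 and above them in replicate 4. A single barcode of replicate 4, with 42857 UMIs, held 677 *Nvncol3* UMIs, 49.6% of the *Nvncol3* UMIs of all *Nvmucin* cells. Without replicate 4 the log2 fold change was -1.67 (edgeR adjusted p = 0.0249), and without the deepest 5% of barcodes it was -1.49 (edgeR adjusted p = 0.00713). Without barcodes of high doublet score it was -1.46 (edgeR adjusted p = 0.0115). With the library as a block it was -1.28 (edgeR adjusted p = 9.76e-13). That last p-value cannot be read as the spread between libraries, since the difference varied widely between them and was reversed in replicate 4. *Nvncol3* also passed after thinning to 1000 UMIs (-1.37, edgeR adjusted p = 0.00705) and among cells with at least 1000 *Nvmucin* CPM (-1.12, edgeR adjusted p = 0.0316).

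Progenitor markers did not pass the test in either direction. *Nvath-like* (NV2g006608000.1), a transcription factor gene of the atonal family, had 27.7, 0, 9.38 and 19.0 CPM in *Nvmucin* cells, against 40.9, 34.7, 37.9 and 31.9 CPM in barcodes with 0 *Nvmucin* UMIs (log2 fold change -0.92, SE 0.39, edgeR adjusted p = 0.0810). Its values were below the comparison in 4 of 4 libraries, and with the library as a block the gene was lower in *Nvmucin* cells (-0.95, edgeR adjusted p = 0.0213). It also passed after thinning to 1000 UMIs (-2.09, edgeR adjusted p = 0.0154), without barcodes of high doublet score (-1.57, edgeR adjusted p = 0.0236) and among cells with at least 1000 *Nvmucin* CPM (-2.77, edgeR adjusted p = 3.30e-04). *Nvmyc1* (NV2g018827000.1), a transcription factor gene of the myc family, had a log2 fold change of 0.06 (SE 0.33, edgeR adjusted p = 0.897). *Nvnanos* (NV2g000437000.1), a translational regulator of germ line and stem cells in other animals, had a log2 fold change of -0.54 (SE 0.51, edgeR adjusted p = 0.426) on 8 UMIs in *Nvmucin* cells, and was called lower after thinning (edgeR adjusted p = 0.0329) and among cells with at least 1000 *Nvmucin* CPM (edgeR adjusted p = 0.0477).

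**Figure D4:**
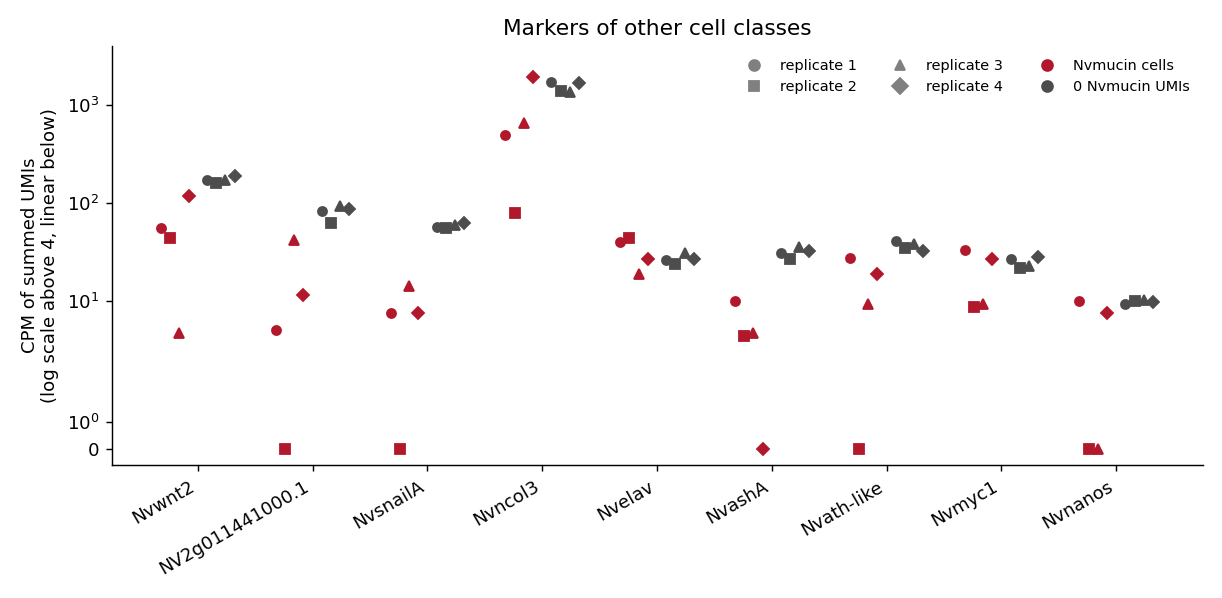
CPM (log scale above 4, linear below) of 9 markers of other cell classes in summed UMIs, 1 point per library, in *Nvmucin* cells and in barcodes with 0 *Nvmucin* UMIs. *Nvncol3* ranges between 78.8 and 1921 CPM across libraries in *Nvmucin* cells, and *NvsnailA* reaches at most 14.1 CPM in them.

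The study's list of 10 mitochondrial genes was read as a sign of cell quality. Their summed level was 24016, 22728, 13331 and 16290 CPM in the *Nvmucin* cells of replicates 1 to 4, against 10786, 9049, 7029 and 8697 CPM in barcodes with 0 *Nvmucin* UMIs. It was thus higher in *Nvmucin* cells in 4 of 4 libraries, with no overlap between the groups, and few cells were extreme, since 3 of 353 *Nvmucin* cells and 1.95% of the comparison barcodes had over 10% of UMIs on these genes. Singly, 2 of the 10 genes were higher, 2 were lower and 6 did not pass the test, against 16.6% of all genes higher and 24.4% lower. With the library as a block 1 was lower.

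The sum was carried by NV2g025931000.1, listed as NADH-ubiquinone oxidoreductase chain 2, a subunit of respiratory complex I that the mitochondrial genome encodes in animals. It had 23094, 22019, 12478 and 15395 CPM in *Nvmucin* cells, against 9579, 7884, 5873 and 7526 CPM in barcodes with 0 *Nvmucin* UMIs (log2 fold change 1.44, SE 0.24, edgeR adjusted p = 4.22e-04). The rise was smaller against depth-matched barcodes (0.75, edgeR adjusted p = 0.0105) and after thinning to 1000 UMIs (0.58, edgeR adjusted p = 0.0489). NV2g001453000.1, listed as the beta subunit of the GDP-forming succinate-CoA ligase of the citric acid cycle, had 141, 87.5, 150 and 131 CPM in *Nvmucin* cells, against 93.2, 83.8, 90.1 and 98.4 CPM in barcodes with 0 *Nvmucin* UMIs (log2 fold change 0.70, SE 0.17, edgeR adjusted p = 0.00492). It was higher in every library, by little in replicate 2, and did not pass after thinning to 1000 UMIs (0.61, edgeR adjusted p = 0.0590). NV2g002540000.1, listed as the mitochondrial heat shock protein of 75 kDa, a chaperone, had 10.1, 13.1, 14.1 and 7.60 CPM in *Nvmucin* cells, against 23.1, 24.7, 22.6 and 23.2 CPM in barcodes with 0 *Nvmucin* UMIs (log2 fold change -0.97, SE 0.26, edgeR adjusted p = 0.0153). With the library as a block it did not pass (edgeR adjusted p = 0.0628), nor did it without replicate 1 or without replicate 4. NV2g000772000.1, listed as cytochrome c oxidase subunit 5B, had a single UMI in *Nvmucin* cells, which amounts to a level 8.11-fold lower than in barcodes with 0 *Nvmucin* UMIs (95% exact counting interval 1.45 to 321), and its call was lost without replicate 1.

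*Nvmucin* cells were then set against *Nvncol1* cells, chosen by the same rule with the genes exchanged. The 136 *Nvncol1* cells (23, 26, 17 and 70 in replicates 1 to 4) carry the marker of the other secretory class. Of 3456 genes tested, 1054 (30.5%) were higher and 957 (27.7%) lower in *Nvmucin* cells. This comparison and the one against barcodes with 0 *Nvmucin* UMIs share the sums of the *Nvmucin* cells. NV2g012903000.1 had 0 UMIs in *Nvncol1* cells, so that its level was at least 963-fold higher in *Nvmucin* cells when 3 UMIs over the group are taken as the limit. NV2g012904000.1 had 3 UMIs in *Nvncol1* cells, and its level was 3351-fold higher in *Nvmucin* cells (95% exact counting interval 1146 to 16250).

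*Nvncol3* had 494, 78.8, 661 and 1921 CPM in *Nvmucin* cells, against 13060, 16276, 9974 and 10412 CPM in *Nvncol1* cells (log2 fold change -4.43, SE 0.72, edgeR adjusted p = 1.63e-04). The groups did not overlap, replicate 4 included, and without that library the log2 fold change was -5.44. *Nvncol1*, a marker of the same class as *Nvncol3*, chose the groups, so this difference may follow from the rule. *NvashA* was lower in *Nvmucin* cells too, with 0 to 10.1 CPM, against 47.9 to 149 CPM in *Nvncol1* cells (log2 fold change -4.96, SE 0.59, edgeR adjusted p = 1.23e-05), and its log2 fold change was -5.98 without replicate 1 and -4.12 without replicate 4. *Nvwnt2* was the only other marker tested in this comparison and had a log2 fold change of -0.14 (SE 0.59, edgeR adjusted p = 0.855). Of the mitochondrial genes, the succinate-CoA ligase subunit rose (log2 fold change 1.48, SE 0.36, edgeR adjusted p = 0.00349). The complex I subunit had a log2 fold change of 0.75 (SE 0.32, edgeR adjusted p = 0.0638), and with the library as a block it passed the test (0.81, edgeR adjusted p = 0.00442). The genes with the largest fall were NV2g000676000.1 and NV2g011394000.1, unnamed in the sources used here. They had 300 and 206 UMIs in *Nvncol1* cells and 0 in *Nvmucin* cells, levels at least 91.8-fold and 63.1-fold lower.

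The third comparison was with 489 *NvLWamide* cells (84, 65, 52 and 288 in replicates 1 to 4), chosen likewise for the neuropeptide gene. Of 5497 genes tested, 1331 (24.2%) were higher and 1123 (20.4%) lower in *Nvmucin* cells. The neuronal markers *Nvelav* and *NvashA* were lower in *Nvmucin* cells. *NvLWamide*, a marker of the same class, chose the groups, so this may follow from the rule and is no independent support for it. *Nvelav* had 40.3, 43.8, 18.8 and 26.6 CPM in *Nvmucin* cells, against 400, 498, 366 and 349 CPM in *NvLWamide* cells (log2 fold change -3.47, SE 0.26, edgeR adjusted p = 2.48e-07). *NvashA* had 10.1, 4.38, 4.69 and 0 CPM in *Nvmucin* cells, against 670, 749, 604 and 585 CPM in *NvLWamide* cells (log2 fold change -6.98, SE 0.40, edgeR adjusted p = 3.49e-08), and its log2 fold change was -7.97 without replicate 1 and -6.37 without replicate 4.

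*Nvncol3* had a log2 fold change of 1.26 in *Nvmucin* cells against *NvLWamide* cells (SE 0.74, edgeR adjusted p = 0.187), and with the library as a block it was higher in *Nvmucin* cells (1.196, edgeR adjusted p = 9.15e-05). NV2g012903000.1 had 1442 to 2491 CPM in *Nvmucin* cells, against 1.06 to 4.72 CPM in *NvLWamide* cells (log2 fold change 9.62, SE 0.36, edgeR adjusted p = 1.72e-09, and 10.49 without replicate 4). NV2g012904000.1 had 4085 to 9044 CPM in *Nvmucin* cells, against 18.0 to 36.5 CPM in *NvLWamide* cells (log2 fold change 8.31, SE 0.36, edgeR adjusted p = 5.06e-09). The complex I subunit (1.14, SE 0.30, edgeR adjusted p = 0.00834) and the succinate-CoA ligase subunit (1.19, SE 0.24, edgeR adjusted p = 0.00126) were both higher in *Nvmucin* cells. The genes with the largest fall, NV2g019361000.1 and NV2g002147000.1, had 4890 and 1039 UMIs in *NvLWamide* cells and 0 in *Nvmucin* cells, levels at least 628-fold and 133-fold lower.

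The number of genes per cell was compared at equal depth. At 1000 UMIs per barcode the median *Nvmucin* cell held 557, 574, 569 and 605.5 genes in replicates 1 to 4, against 603, 613, 614 and 640 genes in barcodes with 0 *Nvmucin* UMIs. The means were 576 ± 20.7 genes in *Nvmucin* cells and 617.5 ± 15.8 genes in the comparison barcodes (SD, n = 4 each). The difference of -41.1 genes was negative in 4 of 4 libraries and did not pass a two-sided exact permutation test (p = 0.0571, where the smallest p possible is 0.0286). That test took the medians as unpaired, although each library gave a median to both groups. It therefore cannot weigh the difference within libraries, and no paired test was made. Thinning left out 5, 6, 4 and 26 *Nvmucin* cells of replicates 1 to 4 that were too shallow. The 10 most abundant genes took 13.3 to 16.2% of the summed UMIs of *Nvmucin* cells, against 9.004 to 9.28% in barcodes with 0 *Nvmucin* UMIs. This share was not particular to *Nvmucin* cells, since it was 15.4 to 20.5% in *Nvncol1* cells and 13.8 to 14.4% in *NvLWamide* cells.

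Clustering of all barcodes, with the genes of the marker list left out of the variable genes, gave 20 clusters. Cluster 9 held 305 of 353 *Nvmucin* cells (86.4%). The clusters were built from the other genes of the same cells, so this share is a description with no test. It was 92.0%, 93.2%, 96.6% and 74.6% in replicates 1 to 4. The share depended on the settings. With a finer clustering (resolution 1.0) the cluster with the most *Nvmucin* cells held 275 of them (77.9%). A separate cluster with a median of 971 UMIs then held 30 more. With 2000 variable genes the leading cluster held 87.8% of the *Nvmucin* cells, and with 20 principal components 86.7%. Cluster 9 held 773 barcodes with a median of 1416 UMIs, including 286 barcodes with 0 *Nvmucin* UMIs and 4 of 489 *NvLWamide* cells, and 0 of 136 *Nvncol1* cells. These 286 barcodes had a median of 1067.5 UMIs, and the median share of their UMIs on the 50 listed genes was 4.90%, against 0% in barcodes with 0 *Nvmucin* UMIs outside the cluster. The listed genes were not left out of the clustering, so this share can follow from it in part. By cluster, the comparison barcodes contained some that resembled the *Nvmucin* cells in their other genes.

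The other 48 *Nvmucin* cells were spread over 11 clusters. In replicate 4 only 100 of 134 *Nvmucin* cells lay in cluster 9. For the same reason, a lower share of the listed genes outside cluster 9 can follow in part from the clustering. The 48 cells are described here beside the 305 cells inside cluster 9. Their median was 3 *Nvmucin* UMIs, against 5 inside the cluster, and the median share of UMIs on the listed genes was 1.51%, against 12.8% inside. They held 1197 of the 1366 *Nvncol3* UMIs of *Nvmucin* cells, which gave 5142 CPM outside cluster 9 and 149 CPM inside it. The barcode with 677 of these UMIs lay in cluster 8, and without it the level outside cluster 9 was 2737 CPM. Without the 3 cells with the most *Nvncol3* UMIs, a number chosen after seeing the data, it was 1645 CPM. Cluster 17 was the next most common, with 14 *Nvmucin* cells, 12 of them from replicate 4, among 79 barcodes of which 75 came from that library. These 14 cells held 310 of the 1366 *Nvncol3* UMIs. Over all libraries the 48 cells outside cluster 9 were not shallower, with a median of 2585 UMIs, against 2246 in the 305 cells inside it. The part that the shallow barcodes of replicate 4 had in this spread was not tested.

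The number of *Nvmucin* UMIs in a cell went along with these measures. With 2, 3 to 4, 5 to 9, and 10 or more *Nvmucin* UMIs, the *Nvmucin* cells numbered 84, 77, 86 and 106, and the share inside cluster 9 was 72.6%, 85.7%, 91.9% and 93.4%. The median share of UMIs on the listed genes was 6.01%, 10.6%, 12.8% and 13.9% in the same order. Depth rose along with it, with medians of 1312.5, 1643, 3014.5 and 4731 UMIs, so *Nvmucin* UMIs and depth cannot be told apart here. *Nvwnt2* stood at 144, 111, 52.2 and 54.4 CPM in the same order. No test was made between these bands.

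**Figure D5:**
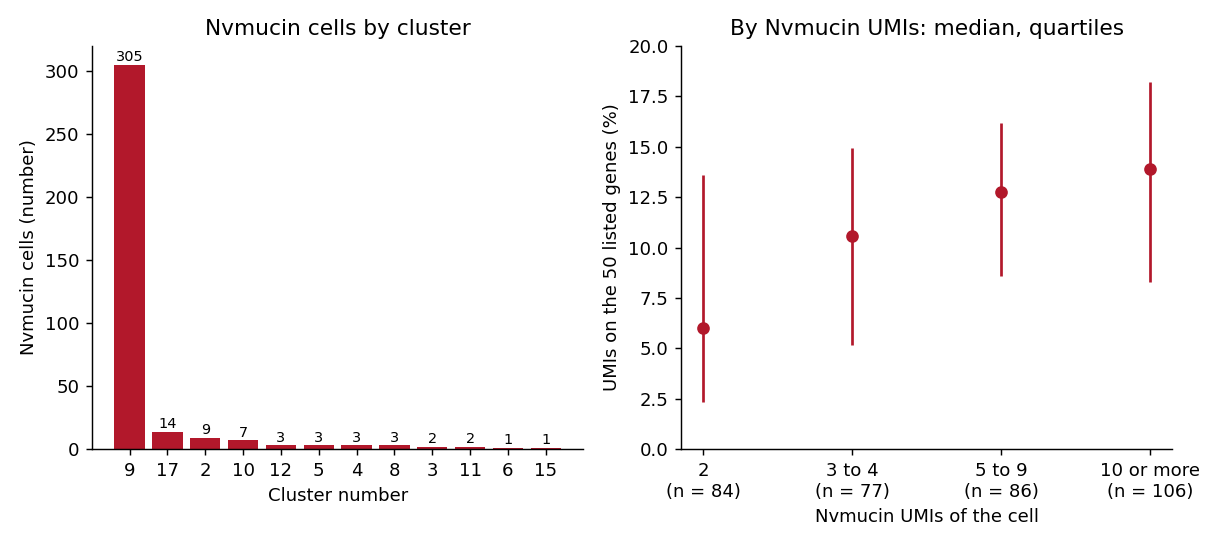
Left, number of *Nvmucin* cells in each cluster that holds at least 1. Right, percent of UMIs on the 50 listed genes by the number of *Nvmucin* UMIs of the cell, with the median as a point and the quartiles as a bar. Cluster 9 holds 305 cells, and the median on the right is 6.01% at 2 UMIs and 13.9% at 10 or more.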

How the data were processed

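Dissociated gastrulae were sequenced as single cells in droplets (10x Genomics, 3′ chemistry). The authors deposited 1 matrix of UMI counts for each library, without normalization, after CellRanger had aligned the reads to introns as well as exons. The matrix headers name version 6.1.2 of the program and the submitters' processing notes name version 7.1.1. The sources used here name no genome build, and 0 of the gene IDs matched the RefSeq table at hand. The counts were joined by gene ID over 24526 genes and 18779 barcodes, of which 2690 with fewer than 500 genes were left out. No column of another sample was present, and of the 13 markers with an ID, *NvNgal* was not analysed here. The study's filter on mitochondrial UMIs was an alternative and not part of the rule. The members and gene lists were chosen with earlier results of these data known.

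UMIs were summed per library and group and tested with edgeR 4.0.16 (TMM factors, filterByExpr, quasi-likelihood test) in R 4.3.3, with Benjamini-Hochberg adjustment over all genes tested. SE was derived from the log2 fold change and the F statistic. DESeq2 1.42.0 was an alternative. The library number pairs the sums by construction, since each library gave a sum to both groups. Their deviations from the group means had correlations of 0.220, 0.0944, 0.0856 and 0.119 in replicates 1 to 4, and the fit with a library block was an alternative. Clusters used Seurat 5.3.0 (4000 variable genes, 30 principal components, Louvain method, resolution 0.5). Doublets were not removed from the results given. Scores from scanpy 1.11.5 at an assumed 0.8% per 1000 barcodes marked 9, 3, 2 and 7 *Nvmucin* cells and served as an alternative. These were 10.3%, 4.05%, 3.45% and 5.22% of the *Nvmucin* cells of replicates 1 to 4. Over all barcodes the marked share was set at 2.94%, 2.33%, 1.81% and 5.79% in the same order. Permutation tests used scipy 1.17.1.

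Named genes are all markers and mitochondrial genes of the study's lists and, per comparison, the 2 with the largest rise (at least 20 UMIs in *Nvmucin* cells) and the 2 with the largest fall (mean of at least 100 CPM in the other group), each with an adjusted p under 0.05 and the same direction in all 4 libraries. On simulated data with 200 genes changed, edgeR recovered 35% of genes changed by 1 and 67% of those changed by 2 on the log2 scale in the comparison with 0 *Nvmucin* UMIs (15912 genes), 18% and 82% with *Nvncol1* cells (3456 genes), and 48% and 90% with *NvLWamide* cells (5497 genes). The simulation gave all genes of a comparison the same dispersion and did not pair the libraries. Far fewer genes changed in it than were called in the real data, so recovery there can differ.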

Additional observations from a re-analysis of the deposited data

Results flagged for a closer look

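Barcodes with fewer than 500 genes were outside every comparison and still held 352 *Nvmucin* UMIs. *Nvmucin* stood at 269, 240, 294 and 131 CPM in these barcodes of replicates 1 to 4, against 22.6, 31.8, 30.6 and 29.3 CPM in all barcodes with at least 500 genes. Of 2690 such barcodes 61 held 2 or more *Nvmucin* UMIs. The 50 listed genes took 0.781 to 1.47% of their summed UMIs.

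Of 53 sets of 4 library values looked at, 3 had a library far from the others, where chance gives about 1 in 20. The *Nvmucin* cells of replicate 2 had 525 CPM of the cytochrome c oxidase subunit 5A gene NV2g024053000.1, against 627 to 629 CPM in the *Nvmucin* cells of the other libraries. The subunit 5B gene NV2g000772000.1 had 1.9 CPM in the *Nvmucin* cells of replicate 4 and 0 in those of the other libraries, which is a single UMI. The median share of UMIs on the listed genes in barcodes with 0 *Nvmucin* UMIs was 0.007779% in replicate 1 and 0 in the other libraries.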

How the results depend on the processing

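None of the named genes that passed the test as reported changed sign under an alternative. Against barcodes with 0 *Nvmucin* UMIs, thinning each barcode to 1000 UMIs gave 1270 genes higher and 2153 lower, depth-matched barcodes gave 2243 lower, and a filter on the mean count, chosen after seeing the data, gave 1051 higher and 1183 lower of 2873 tested. Leaving out 1 library in turn gave 2364 to 2539 genes higher and 2650 to 3788 lower. With the library as a block (the paired fit) 2529 genes were higher and 3613 lower, and calls changed by it are given beside their results. Without a filter on low counts, 1984 genes were higher and 1603 lower than in *Nvncol1* cells, 1858 were lower than in *NvLWamide* cells, and the median over all genes against barcodes with 0 *Nvmucin* UMIs moved to -0.82.

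Of the markers of other classes, 1 was higher at a minimum of 1000 *Nvmucin* CPM and 1 against barcodes with 0 *NvLWamide* and *Nvncol1* UMIs, 7 were lower at 1000 CPM, and 2 were lower with the filter on the mean. Leaving out 1 library gave 0 to 1 higher and 3 to 5 lower. Of the mitochondrial genes, 1 was higher after thinning. The number lower, 2 as reported, was 4 with RLE factors, 5 with DESeq2, 4 without a filter, 4 at 1000 CPM, 1 with the replicate block, 1 without the deepest 5% of barcodes, 1 to 2 with 1 library left out, and 0 with at least 5 *Nvmucin* UMIs, with depth-matched barcodes or after thinning. The cause of these changes was not tested. Lists of 20 genes in place of 50 took 8.161% of UMIs as the mean of library medians. Over the single genes, 35 alternatives made a call that the main comparison lacked and 16 lost one. With 10 UMIs or fewer in *Nvmucin* cells, as for *NvsnailA*, *NvashA* and *Nvnanos*, depth limits the precision.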
